A study of Mus musculus with 12 samples.

Results

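Expression of 10 genes of the DNA and repressive histone methylation machinery was examined in mouse embryonic fibroblasts (MEF cells). The genes were chosen by name: Dnmt1, Uhrf1, Uhrf2, Dnmt3a, Dnmt3b, Ezh1, Ezh2, Eed, Suz12 and Ehmt2. They are 10 of the 46765 different entries listed in the 2 deposited tables, with repeated names counted separately, and every one is listed in both tables. RNA-seq covered 12 libraries in 4 groups of 3, all from C57BL/6 MEF cells isolated at embryonic day 13.5 and immortalized spontaneously by serial passage. Control cells carried an empty puromycin-resistance retroviral vector, and 2MUT cells stably expressed a cancer-associated mutant of human IDH2 from the same vector. The other experiment compared MEF cells that received octyl-(R)-2HG, a form of 2-HG that enters cells, at 300 μM over 24 h (2-HG(+)) with cells that did not (2-HG(-)). For the 2-HG(-) libraries the labels name DMSO over the same time, whereas the methods speak only of cells without 2-HG. The transduced cells are populations of an immortalized line, and cells expressing wild-type IDH2 were not analysed here. The labels do not say whether the 3 libraries of a group came from separate cultures, so that p-values measure the spread between these libraries.

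These genes encode enzymes and partner proteins of repressive marks, namely DNA methylation and methylation of histone H3 at lysine 9 or 27. Dnmt1 copies CpG methylation onto the new DNA strand after replication, and Uhrf1 binds hemimethylated DNA and brings Dnmt1 to it. Dnmt3a and Dnmt3b methylate DNA that carried no mark before. Ezh1 and Ezh2 are alternative catalytic subunits of Polycomb repressive complex 2 (PRC2), which methylates lysine 27 of histone H3, and Eed and Suz12 are core subunits that the enzyme needs. Ehmt2 (G9a) dimethylates lysine 9 of histone H3. All of these enzymes use S-adenosylmethionine, and the opposing TET and JmjC demethylases depend on 2-oxoglutarate, which 2-HG resembles. Uhrf1 and Dnmt1 are well known to be more abundant in dividing cells, and Ezh2 is known as the PRC2 enzyme of proliferating cells.

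The values are RPM, the reads of a gene's amplicon scaled to a total of 1000000 reads in each library. A library held 6472439 to 7313602 such reads in the Control and 2MUT experiment and 14959318 to 18363768 in the 2-HG experiment, so that 3 reads correspond to 0.41 to 0.464 RPM and to 0.163 to 0.201 RPM. One amplicon stands for each gene, so that levels are not compared between genes. Tests of a comparison stay within 1 table, since the tables were normalized separately. Fibroblast genes were abundant, with Col1a1 at 6238 ± 118 RPM in Control (SD, n = 3), while Lum and S100a4 were at 1.24 and 0.142 RPM in Control and were not tested. Markers of other cell types summed to 21.5 to 25.9 RPM in the Control and 2MUT libraries and to 15.7 to 20.6 RPM in the 2-HG(-) and 2-HG(+) libraries. Of the 14 listed, 4 were tested in 2MUT with 0 called by limma, also at an unadjusted p under 0.05, and of 3 tested with 2-HG the neuronal tubulin Tubb3 rose from 1.43 ± 0.228 to 5.92 ± 0.495 RPM and the macrophage marker Cd68 fell from 12.4 ± 1.25 to 8.46 ± 1.01 RPM. The call of Tubb3 held in all 14 alternatives that tested it, and that of Cd68 in 9 of 15, not under the replicate block nor without the first or second 2-HG(-) or the second 2-HG(+) library (adjusted p up to 0.0723). Of 9 tested fibroblast markers 7 were lower and 1 was higher in 2MUT, and 5 were lower and 1 higher in 2-HG(+), and their part in the results below was not tested. In bulk RNA, fewer cells of a type and less RNA per cell cannot be told apart.

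The 4 promoters shown, of Uhrf1, Dnmt1, Ezh2 and Suz12, were chosen because each holds a word of the E2F motif. They were taken from RefSeq on GRCm38.p6 and cover 250 bases before and 50 bases after an annotated start, and all 10 genes were matched with 16 promoters. Capitals mark the E2F words searched, TTTCCCGC, TTTCGCGC, TTTGCCGC and TTTGGCGC, on both strands.
Uhrf1, chr17:56304063-56304362, forward strand: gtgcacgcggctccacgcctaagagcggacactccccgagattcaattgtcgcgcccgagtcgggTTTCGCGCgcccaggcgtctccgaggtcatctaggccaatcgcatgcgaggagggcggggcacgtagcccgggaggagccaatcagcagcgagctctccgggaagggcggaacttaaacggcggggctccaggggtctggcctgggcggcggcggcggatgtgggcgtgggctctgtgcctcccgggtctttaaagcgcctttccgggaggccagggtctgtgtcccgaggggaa
Dnmt1, chr9:20952574-20952873, reverse strand: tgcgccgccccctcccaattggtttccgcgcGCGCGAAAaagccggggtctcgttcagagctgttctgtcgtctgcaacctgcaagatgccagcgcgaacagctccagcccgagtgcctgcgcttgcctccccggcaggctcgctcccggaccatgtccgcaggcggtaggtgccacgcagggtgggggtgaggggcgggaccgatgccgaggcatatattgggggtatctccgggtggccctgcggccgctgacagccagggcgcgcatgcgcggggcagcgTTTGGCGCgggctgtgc
Ezh2, chr6:47594981-47595280, reverse strand: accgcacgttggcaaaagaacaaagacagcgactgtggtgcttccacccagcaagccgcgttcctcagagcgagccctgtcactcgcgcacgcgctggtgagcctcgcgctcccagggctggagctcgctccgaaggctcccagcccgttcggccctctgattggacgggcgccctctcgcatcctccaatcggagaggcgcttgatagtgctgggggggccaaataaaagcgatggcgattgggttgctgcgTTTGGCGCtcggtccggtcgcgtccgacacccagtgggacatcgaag
Suz12, chr11:79992856-79993155, forward strand: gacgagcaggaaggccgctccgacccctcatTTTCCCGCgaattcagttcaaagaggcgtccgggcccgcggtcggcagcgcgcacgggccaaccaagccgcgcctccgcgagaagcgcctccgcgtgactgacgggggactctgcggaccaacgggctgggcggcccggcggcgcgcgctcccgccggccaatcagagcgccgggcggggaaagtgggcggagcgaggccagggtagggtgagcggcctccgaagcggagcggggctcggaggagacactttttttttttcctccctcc
An E2F word was found in these 4 of the 16 promoters, against 744 of 32851 mouse promoters of the same length (2.26%) and 6 of 25 promoters of a proliferation gene list (24%). In the Uhrf1 promoter TTTCGCGC starts 185 bases before the transcription start. The Dnmt1 promoter holds TTTCGCGC on the opposite strand, 219 bases before the start, and TTTGGCGC on the same strand at base 34 after it. In the Ezh2 promoter TTTGGCGC lies at base 4, and in the Suz12 promoter TTTCCCGC lies 219 bases before the start. The other promoters of Dnmt1 and Uhrf1 hold none of the words, nor do those of Uhrf2, Dnmt3a, Dnmt3b, Ezh1, Eed and Ehmt2. The word CCAAT, read on both strands, was found in 7 of the 16 promoters and in 37.4% of all promoters, and TTTGAA in 4 of 16 and in 17.9%. The shown Uhrf1, Dnmt1 and Ezh2 promoters hold 2, 3 and 3 copies of CCAAT, and the 2 Ehmt2 promoters hold neither word. The 16 promoters held a median of 29 CG, against 7 over all promoters, with 46 and 47 in 2 of the 3 Dnmt3a promoters, whose windows overlap. Every E2F word searched holds a CG, and the 2.26% over all promoters was not matched for CG. A match describes the letters in the window only, and which start these cells used was not tested.

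In 2MUT cells, the maintenance pair Uhrf1 and Dnmt1, the PRC2 enzyme Ezh2 and the H3K9 enzyme Ehmt2 were lower than in Control cells. Uhrf1 fell 4.57-fold and the other 3 fell 1.76-fold to 1.86-fold. None of the 10 genes was higher with limma, at an unadjusted p under 0.05 (0 genes), or with edgeR or DESeq2 (0 each). The 4 lower genes compare with 17.3% of all 11065 genes tested that were called lower, 16.5% called higher and 33.8% in either direction, with limma on log2(RPM + 1) and a Benjamini-Hochberg adjusted p under 0.05. All 3 2MUT libraries lay below all 3 Control libraries for 4 of the 10 genes, as for 24% of all genes tested. The median log2 fold change of the 10 genes was -0.20, against 0.01 over all genes tested.

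**Figure D1:**
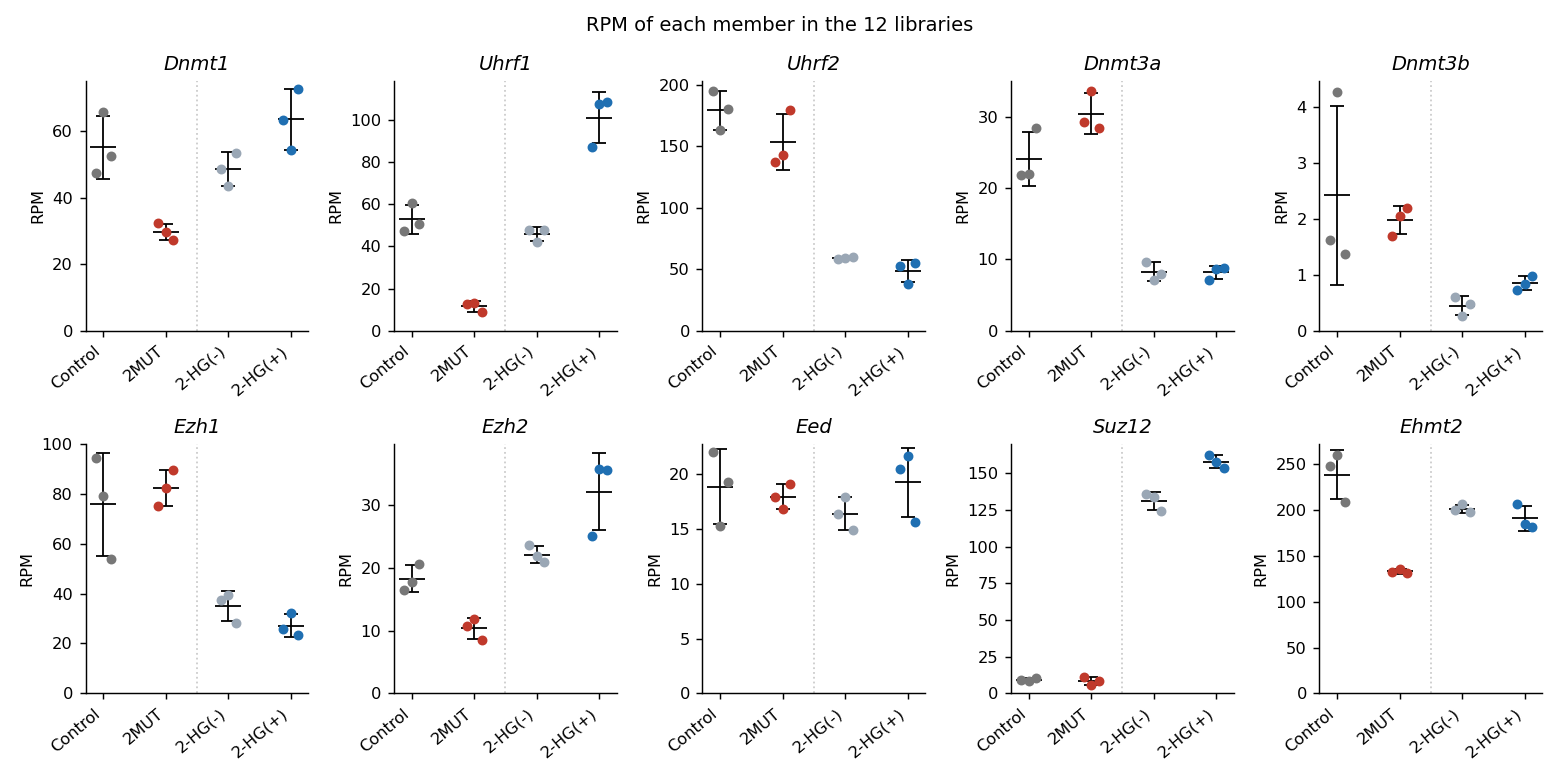
RPM (vertical axis, from 0) of the 10 genes in each library of Control, 2MUT, 2-HG(-) and 2-HG(+); points are libraries, and bars are the mean and SD of 3. The dotted line separates the 2 tables, which were normalized separately. Uhrf1 lies between 8.67 and 13.3 RPM in 2MUT, below every Control library, and between 87.1 and 109 RPM in 2-HG(+), above every 2-HG(-) library.

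Uhrf1 (chromosome 17, 56303321 to 56323486, forward strand in GENCODE M21 on GRCm38), the reader that recruits Dnmt1, was at 47.2, 60.5 and 50.7 RPM in the Control libraries and at 12.7, 13.3 and 8.67 RPM in the 2MUT libraries. The highest 2MUT library was far below the lowest Control library. The log2 fold change was -2.11 (SE 0.18, 95% interval -2.51 to -1.72, adjusted p = 1.03e-05), and 45 of the 11065 genes tested had a lower value.

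Dnmt1 (chromosome 9, 20907209 to 20959888, reverse strand), the maintenance methyltransferase, was at 47.3, 65.7 and 52.5 RPM in Control and at 32.3, 29.6 and 27.2 RPM in 2MUT. The 2MUT libraries lay close together and below all Control libraries, at a log2 fold change of -0.86 (SE 0.15, 95% interval -1.18 to -0.54, adjusted p = 0.00108).

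Uhrf2 (chromosome 19, 30030513 to 30093722, forward strand), the paralogue of Uhrf1, was at 195, 163 and 180 RPM in Control and at 138, 143 and 180 RPM in 2MUT. The groups overlapped through the third 2MUT library, and the difference of -0.23 on the log2 scale (SE 0.12, 95% interval -0.50 to 0.03, adjusted p = 0.165) did not pass the threshold.

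Dnmt3a (chromosome 12, 3806007 to 3914443, forward strand), a de novo methyltransferase, was at 21.9, 21.9 and 28.4 RPM in Control and at 29.2, 33.7 and 28.5 RPM in 2MUT. All 2MUT libraries were above all Control libraries, the closest by less than 0.1 RPM, as for 23.5% of all genes tested. The log2 fold change of 0.33 (SE 0.15, 95% interval -0.00 to 0.67, adjusted p = 0.114) did not pass, but reached 0.45 with an adjusted p of 0.0396 without the third Control library. Dnmt3aos, an antisense gene at this locus, averaged 1.33 and 2.35 RPM in Control and 2MUT, and the counting of strand is not given in the sources used here.

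Dnmt3b (chromosome 2, 153649450 to 153687730, forward strand), the other de novo methyltransferase, was at 1.63, 4.27 and 1.37 RPM in Control and at 1.70, 2.05 and 2.20 RPM in 2MUT. These values rest on 10 to 30 reads a library, and the second Control library stood above the others. The log2 difference of -0.10 had a 95% interval of -0.78 to 0.58 (adjusted p = 0.823), which spans changes of either sign at this depth.

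Ezh2 (chromosome 6, 47530139 to 47595341, reverse strand), the catalytic subunit, was at 16.4, 17.7 and 20.6 RPM in Control and at 10.7, 11.9 and 8.53 RPM in 2MUT. The groups did not overlap, and the log2 fold change was -0.77 (SE 0.18, 95% interval -1.15 to -0.38, adjusted p = 0.00649).

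Ezh1 (chromosome 11, 101191115 to 101226463, reverse strand), the alternative catalytic subunit, was at 94.4, 79.2 and 53.7 RPM in Control and at 75.2, 82.3 and 89.6 RPM in 2MUT. The Control libraries spanned all 2MUT values, and the difference of 0.15 (SE 0.18, adjusted p = 0.536) did not pass.

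Eed (chromosome 7, 89954654 to 89980983, reverse strand), which binds trimethylated lysine 27, was at 22.0, 15.2 and 19.3 RPM in Control and at 17.9, 16.8 and 19.1 RPM in 2MUT. Suz12 (chromosome 11, 79993106 to 80034123, forward strand), a scaffold of the complex, was at 9.03, 8.26 and 10.5 RPM in Control and at 11.1, 5.42 and 8.53 RPM in 2MUT. Both genes overlapped between the groups, with log2 fold changes of -0.05 (95% interval -0.42 to 0.31, adjusted p = 0.834) and -0.18 (95% interval -0.70 to 0.34, adjusted p = 0.595).

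Ehmt2 (chromosome 17, 34898469 to 34914052, forward strand), the H3K9 methyltransferase, was at 248, 260 and 208 RPM in Control and at 132, 136 and 131 RPM in 2MUT. The 2MUT libraries varied by a CV of 2.06% and stood well below the lowest Control library, at a log2 fold change of -0.83 (SE 0.10, 95% interval -1.06 to -0.60, adjusted p = 0.000162).

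After 24 h with 2-HG, Uhrf1, Ezh2 and Suz12 were higher and none of the 9 genes tested was lower with limma, edgeR or DESeq2, or at an unadjusted p under 0.05 (0 each). The 3 higher genes compare with 16.1% of the 10384 genes tested that were called higher, 16.7% called lower and 32.8% in either direction. The call of Uhrf1 held in each of the 15 alternatives tried, while Ezh2 was called in 8 and Suz12 in 6 of theirs. All 3 2-HG(+) libraries lay above all 3 2-HG(-) libraries for 4 of the 9 genes, namely Dnmt1, Uhrf1, Ezh2 and Suz12, as for 22.2% of all genes tested.

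Uhrf1 was at 47.9, 42.0 and 48.0 RPM in 2-HG(-) and at 87.1, 107 and 109 RPM in 2-HG(+). The means differed 2.20-fold, and no library of either group came near the other, at a log2 fold change of 1.12 (SE 0.12, 95% interval 0.85 to 1.38, adjusted p = 0.000124), and 149 of the 10384 genes tested had a higher value.

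Dnmt1 was at 48.7, 43.6 and 53.6 RPM in 2-HG(-) and at 63.4, 54.4 and 72.8 RPM in 2-HG(+). The lowest 2-HG(+) library was less than 1 RPM above the highest 2-HG(-) library. The log2 fold change of 0.37 (SE 0.13, 95% interval 0.08 to 0.67) had an adjusted p of 0.0545 and did not pass. It passed with edgeR (0.0402) and DESeq2 (0.0248) on whole reads recovered from RPM, with median-of-ratios scaling (0.0383) and without the second 2-HG(+) library (0.0352).

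Uhrf2 was at 58.3, 59.5 and 60.2 RPM in 2-HG(-) and at 52.7, 38.1 and 55.0 RPM in 2-HG(+). All 2-HG(+) libraries were below all 2-HG(-) libraries, as for 24.1% of all genes tested, and the second one was far below the others. The log2 fold change of -0.30 (SE 0.14, 95% interval -0.62 to 0.01, adjusted p = 0.131) did not pass.

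Dnmt3a was at 9.69, 7.09 and 7.93 RPM in 2-HG(-) and at 7.14, 8.60 and 8.82 RPM in 2-HG(+). The groups overlapped, and the log2 fold change was 0.00 to 2 decimals (95% interval -0.35 to 0.34, adjusted p = 0.991). Dnmt3b was at 0.599, 0.267 and 0.480 RPM in 2-HG(-) and at 0.727, 0.842 and 0.980 RPM in 2-HG(+). It rests on 4 to 15 reads a library and did not reach the mean of 1 RPM needed to be tested. Without that filter its log2 fold change was 0.36 (SE 0.11), with an adjusted p of 0.0541 over 18150 genes.

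Ezh2 was at 23.6, 21.8 and 20.8 RPM in 2-HG(-) and at 25.0, 35.7 and 35.5 RPM in 2-HG(+). The first 2-HG(+) library was close to the 2-HG(-) libraries and the other 2 stood above them, giving a log2 fold change of 0.50 (SE 0.15, 95% interval 0.16 to 0.84, adjusted p = 0.0303). The adjusted p ranged from 0.0022 to 0.121 over the alternatives, and it passed without the first 2-HG(+) library and failed without any other single library.

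Ezh1 was at 37.4, 39.4 and 28.2 RPM in 2-HG(-) and at 25.8, 32.2 and 23.4 RPM in 2-HG(+). The groups overlapped, and the log2 fold change of -0.35 (SE 0.16, 95% interval -0.72 to 0.01, adjusted p = 0.127) did not pass.

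Suz12 was at 136, 134 and 124 RPM in 2-HG(-) and at 162, 158 and 154 RPM in 2-HG(+). The groups did not overlap, but the difference of 0.27 on the log2 scale was small (SE 0.09, 95% interval 0.07 to 0.46, adjusted p = 0.0443). It did not pass without any 1 of the 6 libraries, with an adjusted p between 0.0634 and 0.16. Eed was at 16.3, 17.9 and 15.0 RPM in 2-HG(-) and at 20.4, 21.6 and 15.7 RPM in 2-HG(+), with overlapping groups and a log2 fold change of 0.21 (95% interval -0.12 to 0.54, adjusted p = 0.31).

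Ehmt2 was at 200, 207 and 198 RPM in 2-HG(-) and at 207, 185 and 181 RPM in 2-HG(+). The groups overlapped, and the log2 fold change of -0.08 had a 95% interval of -0.29 to 0.12 (adjusted p = 0.536).

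**Figure D2:**
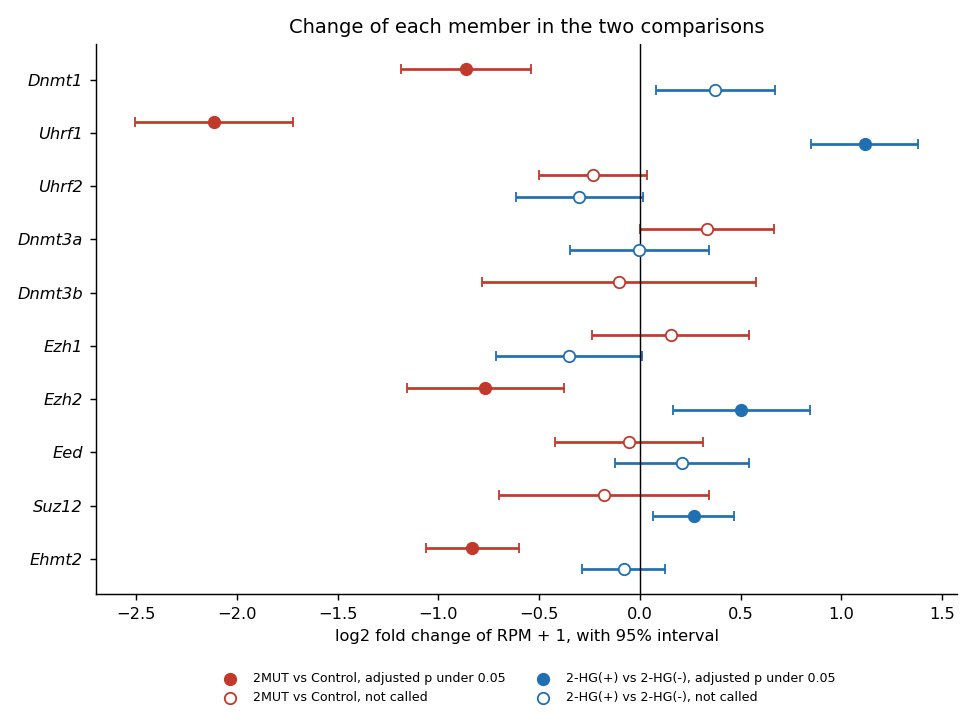
Log2 fold change of RPM + 1 (horizontal axis) of each gene in 2MUT against Control (red) and in 2-HG(+) against 2-HG(-) (blue), with 95% intervals from limma. Filled points passed an adjusted p under 0.05. Uhrf1 lies at -2.11 and 1.12, Ezh2 at -0.77 and 0.50, and Dnmt3b was tested in the 2MUT comparison only.

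Whether the same gene responded differently in the 2 experiments was tested as the difference between its log2 fold changes over all 12 libraries. It passed the threshold for Uhrf1, Ezh2, Dnmt1 and Ehmt2, each lower in the 2MUT comparison, and for none in the other direction. Of the 9594 genes tested in both experiments, 39.4% passed in either direction, 19.5% in this one and 19.9% in the other. The 2 experiments share no libraries.

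For Uhrf1 the change in 2MUT minus the change with 2-HG was -3.23 (SE 0.22, adjusted p = 1.63e-07). For Ezh2 it was -1.27 (SE 0.23, adjusted p = 0.000696), and for Dnmt1 it was -1.24 (SE 0.20, adjusted p = 0.000319). For Ehmt2 the difference of -0.75 (SE 0.14, adjusted p = 0.000701) came with a fall in 2MUT and overlapping groups with 2-HG. Ezh1 (0.50, 95% interval -0.08 to 1.09), Suz12 (-0.44, -0.99 to 0.10), Dnmt3a (0.34, -0.13 to 0.80), Eed (-0.26, -0.74 to 0.22) and Uhrf2 (0.07, -0.36 to 0.50) did not pass. Uhrf1 and Ezh2 were both called lower in 2MUT and called higher with 2-HG, 2 of 9 genes, which was the case for 5.18% of the 9594 genes.

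**Figure D3:**
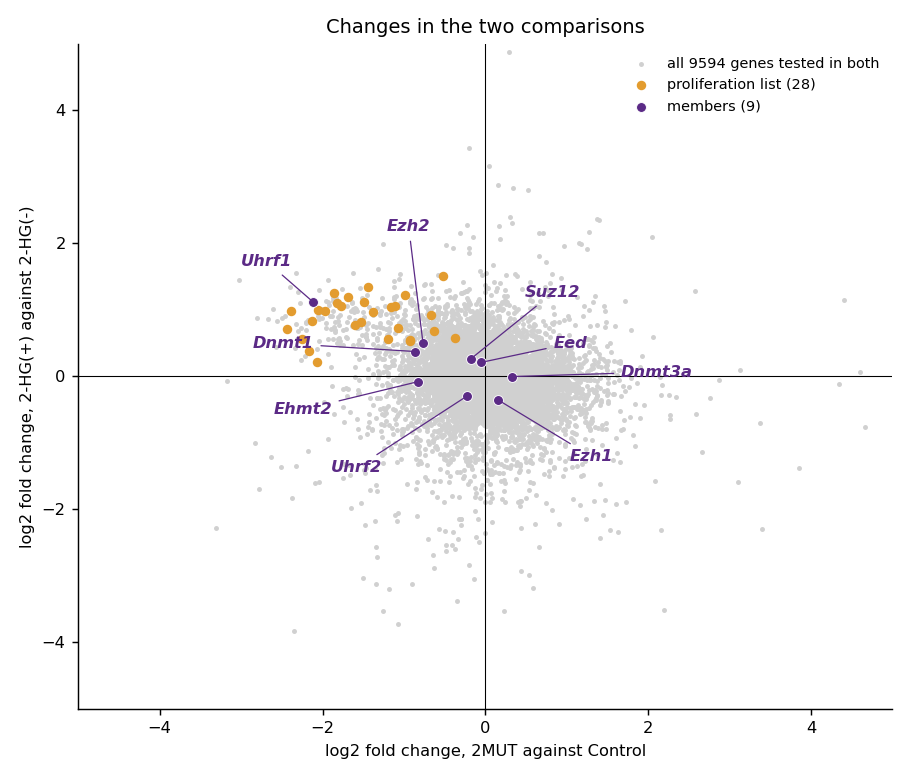
Log2 fold change in 2MUT against Control (horizontal axis) and in 2-HG(+) against 2-HG(-) (vertical axis) for the 9594 genes tested in both. Purple points are the 9 genes of interest that were tested in both, and orange points are 28 proliferation genes. Uhrf1 lies among the proliferation genes in the upper left, and Ezh1, Eed, Suz12, Dnmt3a and Uhrf2 lie near the origin.

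Proliferation genes moved in the same directions as Uhrf1 and Ezh2 in both comparisons. Of 28 tested genes of a 30-gene proliferation list, 26 were lower and 0 higher in 2MUT, with a median log2 fold change of -1.51. With 2-HG 26 of 28 were higher and 0 lower, with a median of 0.94 against -0.02 over all genes tested. Their summed level was 1798 to 2122 RPM in Control and 503 to 642 RPM in 2MUT, and 1366 to 1410 RPM in 2-HG(-) and 2479 to 2701 RPM in 2-HG(+). Mki67, a marker of cycling cells, fell from 44.4 ± 6.66 to 9.14 ± 1.63 RPM in 2MUT (SD, n = 3). With 2-HG it was 22.2 ± 2.75 RPM in 2-HG(-) and 29.0 ± 1.07 RPM in 2-HG(+) (log2 fold change 0.38, limma adjusted p = 0.041). This call was weak, held in 7 of 15 alternatives and was lost under the replicate block and without any 1 library other than the second 2-HG(-) library (adjusted p up to 0.16). Rrm2, a subunit of ribonucleotide reductase, fell from 73.2 ± 0.496 to 26.4 ± 0.40 RPM in 2MUT and rose from 67.0 ± 5.33 to 171 ± 8.89 RPM with 2-HG, and both of its calls held in all 15. The part of a different share of cycling cells in the changes of Uhrf1, Dnmt1 and Ezh2 was not tested.

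The genes whose pair of changes was nearest to that of Uhrf1, among 6709 genes with at least 10 RPM in each table, were Aurkb, Fam111a, Cdt1, Tk1 and Hist1h2bm. Their Euclidean distances on the log2 scale were 0.13 to 0.19, over 2 comparisons of 6 libraries, and 40 genes lay within 0.5. The position of Dnmt1 and of Ezh2 was far more crowded, with 577 and 634 genes within 0.5. Nearest to Dnmt1 were Slc25a30, Snora23, Cdkn2d, Hjurp and Myh10, and nearest to Ezh2 were Lpcat4, Crlf3, Eif3d, G2e3 and Ngfrap1.

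Ratios of related genes were taken within a library, on RPM + 1, where the added value weighs on genes of few reads. The log2 ratio of Ezh2 to Ezh1 was -2.45, -2.10 and -1.34 in Control and -2.71, -2.70 and -3.25 in 2MUT, a difference of -0.92 (SE 0.38). In the 2-HG experiment it moved the other way, from -0.64, -0.83 and -0.42 to -0.05, 0.14 and 0.58, a difference of 0.85 (SE 0.22). The groups did not overlap in either experiment, and the exact two-sided permutation test gave p = 0.1, the smallest that 3 against 3 libraries allow.

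The log2 ratio of Uhrf1 to Uhrf2 fell by 1.88 in 2MUT (SE 0.35), from a mean of -1.75 to -3.63, and rose by 1.42 (SE 0.23) with 2-HG, from -0.36 to 1.05. The log2 ratio of Dnmt1 to Dnmt3a fell by 1.19 in 2MUT (SE 0.22), from 1.16 to -0.03, and differed by 0.38 (SE 0.18) with 2-HG, where the groups overlapped (exact permutation p = 0.2). The log2 ratio of Dnmt3b to Dnmt3a differed by -0.44 (SE 0.46, exact permutation p = 0.6) in 2MUT and by 0.36 (SE 0.06) with 2-HG. The Uhrf1 to Uhrf2 ratio in both experiments, the Dnmt1 to Dnmt3a ratio in 2MUT and the Dnmt3b to Dnmt3a ratio with 2-HG reached the smallest exact p of 0.1, and 8 such ratios were tested with no adjustment. The reads behind Dnmt3b are few, and its ratio with 2-HG was 0.84 (SE 0.17) with 0.1 in place of 1 added to RPM.

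**Figure D4:**
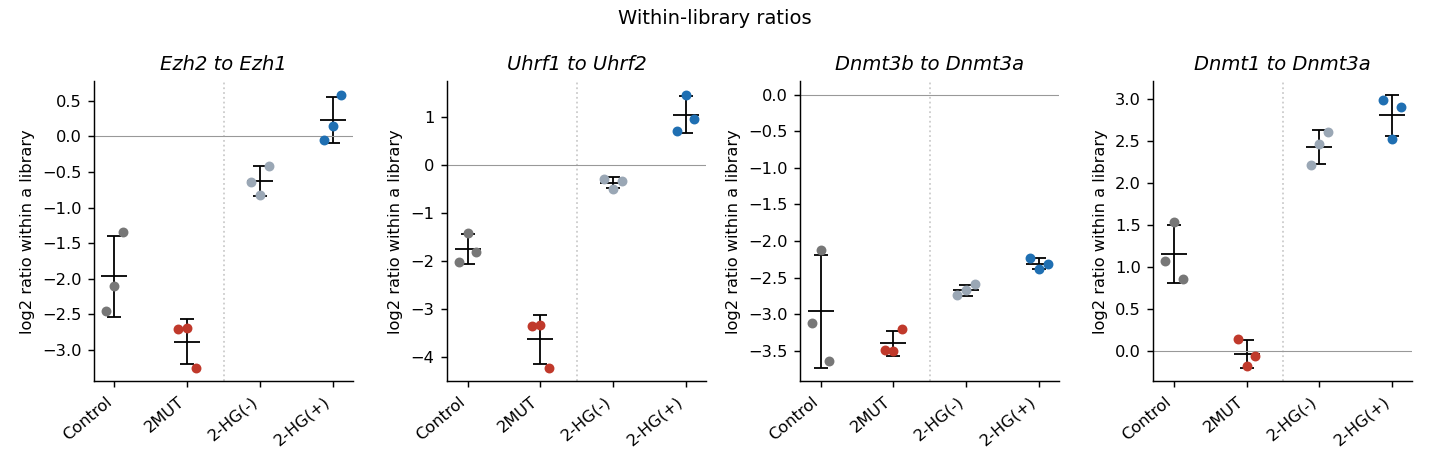
Log2 ratio of RPM + 1 between 2 genes within each library (vertical axis) in the 4 groups; points are libraries, and bars are the mean and SD of 3. The Ezh2 to Ezh1 and Uhrf1 to Uhrf2 ratios are lower in every 2MUT library than in every Control library and higher in every 2-HG(+) library than in every 2-HG(-) library.

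The level of Suz12 stood apart between the tables, which were normalized separately. It averaged 9.27 RPM in Control and 131 RPM in 2-HG(-), 14.1 times as much, while Dnmt1, Uhrf1, Ezh2, Eed and Ehmt2 were within 1.21 times of each other in these groups. Uhrf2, Dnmt3a, Dnmt3b and Ezh1 were 2.17 to 5.40 times as high in Control as in 2-HG(-). The tables list 43280 and 23930 entries, and the cause of these differences was not tested. The 2MUT comparison of Suz12 therefore rests on 37 to 77 reads a library and the 2-HG comparison on 1999 to 2623.

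Other genes of the same pathways were counted in lists written from general knowledge, and values after ± are the SD of 3 libraries. Over all genes tested, 16.5% were called higher and 17.3% lower in 2MUT, and 16.1% higher and 16.7% lower with 2-HG. The counts of every list below are to be read against these shares, and some lie near them. Where 0 genes of a list were called in a direction, edgeR and DESeq2 called 0 as well, and 0 to 2 had an unadjusted p under 0.05. Of 8 genes that assist or remove DNA methylation, 2 were higher and 2 lower in 2MUT, with a median of 0.24. Cdca7, which activates the chromatin remodeller Hells, fell from 32.0 ± 6.50 to 14.7 ± 1.55 RPM in 2MUT and rose from 11.8 ± 2.38 to 34.1 ± 1.17 RPM with 2-HG. Hells itself fell from 5.05 ± 1.38 to 2.24 ± 0.94 RPM in 2MUT and rose from 32.7 ± 2.40 to 73.1 ± 8.20 RPM with 2-HG. Its fall in 2MUT was called in 9 of 14 alternatives and not without the first or second Control or the second 2MUT library (adjusted p up to 0.134), while its rise with 2-HG and both changes of Cdca7 held in all 15. Dnmt3l, the catalytically inactive cofactor of the de novo enzymes, was 1 of the 2 higher genes in 2MUT, at 0.19 ± 0.329 RPM in Control, under the level of 3 reads, and 1.90 ± 0.11 RPM in 2MUT. It reached the mean of 1 RPM only through the 2MUT libraries, so that its call is no support, and with a filter at 10 RPM 1 gene of the list was higher. Cdca7 and Hells went opposite ways in the 2 comparisons, as Uhrf1 did. Among the TET genes, which oxidize 5-methylcytosine, Tet3 rose in 2MUT (0.46, adjusted p = 0.00564) and Tet2 fell with 2-HG (-0.67, adjusted p = 0.0066), and of the 7 tested there 2 were higher and 1 lower. The call of Tet2 was lost with the unmoderated test alone (adjusted p = 0.0623).

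Of 8 methyl-CpG readers, 4 were higher and 0 lower in 2MUT, with a median of 0.37. Mbd1, which binds methylated CpG, rose from 45.4 ± 8.26 to 76.5 ± 12.3 RPM, and Zbtb38 rose from 300.0 ± 43.9 to 469 ± 23.1 RPM. With 2-HG 0 were higher and 1 was lower, the reader Zbtb4, which fell by 0.63 on the log2 scale and had risen by 0.39 in 2MUT. That rise was not called without 2MUT library 1 or 2 (adjusted p up to 0.0806), and that of Mbd1 was lost with the unmoderated test alone (adjusted p = 0.074).

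Of 8 accessory subunits of PRC2, 1 was higher and 1 lower in each comparison. Phf19, a Polycomb-like subunit, fell from 7.83 ± 0.619 to 1.45 ± 0.175 RPM in 2MUT and rose from 7.25 ± 0.642 to 13.6 ± 1.65 RPM with 2-HG. Mtf2, another Polycomb-like subunit, rose by 0.65 in 2MUT (adjusted p = 0.034), but was called in 8 of 15 alternatives, and without any 1 Control library and without 2MUT library 1 or 3 it was not (adjusted p up to 0.148). Phf1, the third of them, fell by 0.88 with 2-HG (adjusted p = 0.00287). Of 17 tested subunits of Polycomb repressive complex 1, 3 were higher and 0 lower in 2MUT, and 3 were higher and 1 lower with 2-HG. Pcgf5, a RING-finger partner in that complex, rose by 1.34 in 2MUT and by 1.20 with 2-HG. It is a gene the study itself singled out from these libraries.

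Of 10 tested H3K9 methyltransferases and heterochromatin partners, 2 were higher and 4 lower in 2MUT. Ehmt1, the partner of Ehmt2 in its heterodimer, rose from 112 ± 3.35 to 157 ± 7.81 RPM (log2 fold change 0.49, adjusted p = 0.0026) while Ehmt2 fell. Wiz, a zinc finger subunit of the same complex, fell by 0.90 (adjusted p = 0.00251, and 0.0743 with the unmoderated test). Setdb1, an H3K9 trimethylase, rose by 0.98, and its cofactor Atf7ip fell by 0.95. Suv39h1, another H3K9 trimethylase, fell by 0.75 in 2MUT and rose by 0.85 with 2-HG, where 2 of 11 tested genes of the list were higher and 0 lower. The other higher gene, Cbx5 (0.29, limma adjusted p = 0.0332), was called in 6 of 15 alternatives and lost its call without any 1 library.

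Of 26 other histone methyltransferases, 8 were higher and 6 lower in 2MUT, and 6 were higher and 7 lower with 2-HG. In 2MUT Kmt2c rose by 0.84 and Kmt5b (listed as Suv420h1) by 0.81. With 2-HG Kmt2e fell by 0.78, while Prmt7 rose by 0.77, Smyd2 by 0.75 and Prmt5 by 0.68. The calls of Prmt7 and Smyd2 were lost with the unmoderated test alone (adjusted p = 0.0515 and 0.0867). Kmt2a, an H3K4 methyltransferase, rose by 0.89 in 2MUT and fell by 0.42 with 2-HG. Its rise held in 14 of 15 alternatives (adjusted p = 0.0512 with the unmoderated test), and its fall in 13, not under the replicate block nor without the second 2-HG(+) library (adjusted p up to 0.0537). The H3K36 enzyme Nsd2 (listed as Whsc1) fell by 0.70 in 2MUT and rose by 0.45 with 2-HG, the rise being called in 11 of 15 alternatives. Of 12 H3K9 and H3K27 demethylases, 0 were called in either direction in 2MUT, where their log2 fold changes ran from -0.18 to 0.76. With 2-HG 3 of 11 were lower and 0 higher, namely Kdm3a (-0.40), Kdm3b (-0.28) and Phf8 (-0.53). These calls were weak and held in 3 of 15, 7 of 15 and 8 of 14 alternatives. In the S-adenosylmethionine cycle 1 of 7 tested genes was higher and 3 were lower in 2MUT, and 1 of 6 was higher and 0 lower with 2-HG. The higher gene in 2MUT was Mat2a, which makes S-adenosylmethionine and rose from 123 ± 12.9 to 227 ± 8.65 RPM. With 2-HG it was Mtr, methionine synthase, which rose from 25.7 ± 0.808 to 45.0 ± 0.092 RPM. The 3 lower genes in 2MUT were Ahcyl2 (-0.73), Mtap (-0.55) and Ahcyl1 (-0.31), the last called in 7 of 15 alternatives.

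Of 12 tested genes of the E2F and RB family, 3 were higher and 1 lower in 2MUT, and 4 were higher and 1 lower with 2-HG. In 2MUT the balance depended on the setting, with 3 higher and 3 lower under quantile normalization and with edgeR, and 1 higher and 2 lower with no filter. The repressor E2f7, itself induced in S phase, fell from 18.3 ± 2.45 to 3.65 ± 0.186 RPM in 2MUT and rose from 8.95 ± 0.737 to 17.1 ± 1.06 RPM with 2-HG. Rbl2 (p130), a pocket protein of quiescent cells, went the other way, up by 0.46 in 2MUT, called in 11 of 15 alternatives, and down with 2-HG, where it fell by 0.94.

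Genes that these marks are known to repress were counted as well. Of 16 germline genes silenced by promoter DNA methylation, 1 was above the filter in each comparison and 0 were called, so that this list could hardly be tested. Of 20 developmental regulators bound by PRC2 in embryonic stem cells, 7 were tested in 2MUT, with 2 higher and 1 lower, and 6 with 2-HG, with 0 higher and 3 lower and a median log2 fold change of -0.47. Wt1 rose by 0.50 in 2MUT, a call that held in 11 of 15 alternatives, and Tbx5 fell by 0.43 in 2MUT and by 0.58 with 2-HG. The fall of Tbx5 in 2MUT was called in 13 of 15 and not without the third 2MUT library (adjusted p up to 0.0869), while its fall with 2-HG held in all 15. Of the other lower genes with 2-HG, Pax9 was called in all 14 alternatives that tested it. Gata3, at 2.45 ± 0.449 RPM in 2-HG(-) and 1.27 ± 0.478 RPM in 2-HG(+), was called in 6 of 14.

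**Figure D5:**
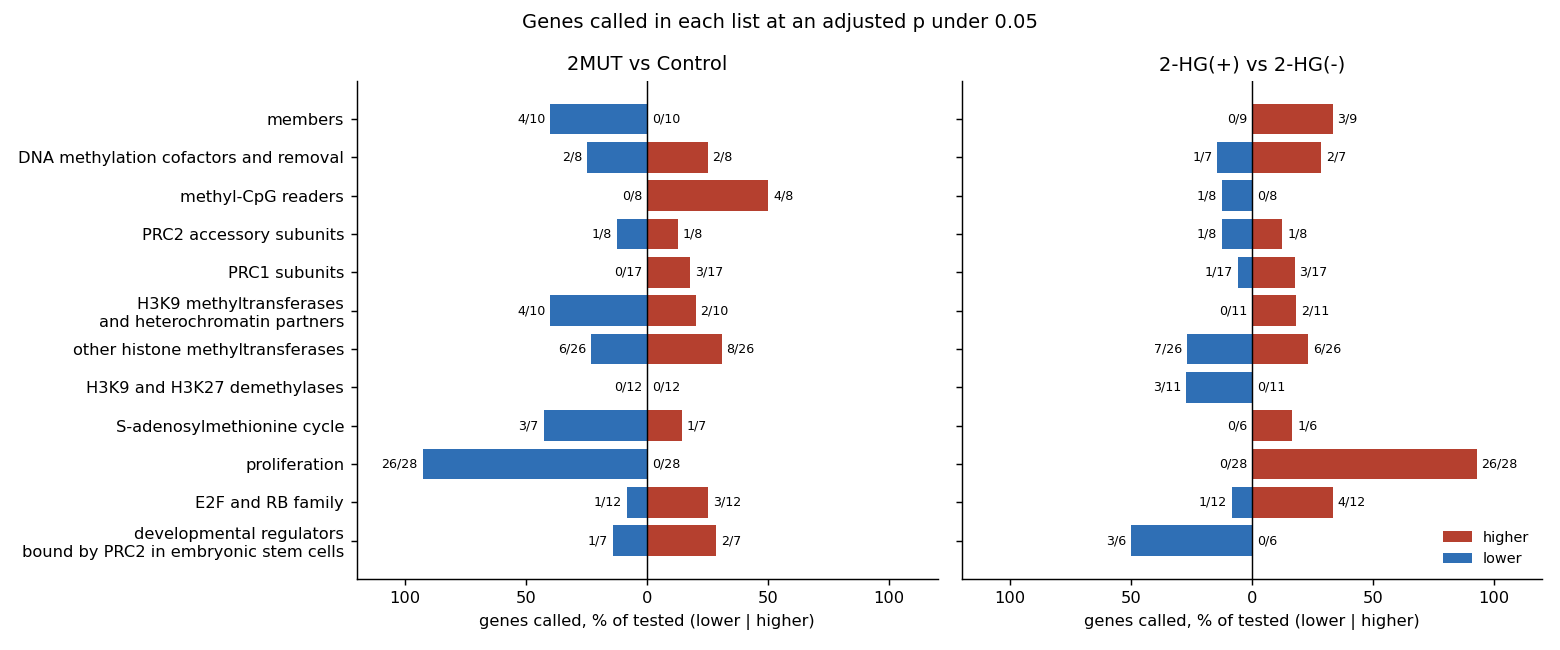
Share of the tested genes of each list (horizontal axis, percent) called lower (blue, to the left) or higher (red, to the right) at an adjusted p under 0.05 in 2MUT against Control and in 2-HG(+) against 2-HG(-), with the counts beside the bars. The proliferation list has 26 of 28 genes called in each comparison, in opposite directions, and the methyl-CpG readers have 4 of 8 called higher in 2MUT. The row of members holds the 10 genes of interest. Of all genes tested, 16.5% were called higher and 17.3% lower in 2MUT, and 16.1% higher and 16.7% lower with 2-HG.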

How the data were processed

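Total RNA of 12 libraries was sequenced by Ion AmpliSeq on the Ion Proton system. The authors counted the reads on each gene's amplicon and deposited RPM values in 1 table per experiment. The genome build behind the amplicons is not given in the sources used here, and gene coordinates come from GENCODE M21 on GRCm38. Groups were taken from the sample labels.

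RPM was multiplied back to whole reads, and 100% of the values came out whole within 0.02 reads, which gave the read totals per library. The log2(RPM + 1) values of genes averaging 1 RPM or more over the 6 libraries of a comparison were fitted with limma 3.58.1 in R 4.3.3 (trended prior), and p-values were Benjamini-Hochberg adjusted over all of these genes. Fold changes of low genes are understated on this scale. The difference between comparisons was fitted over all 12 libraries. Ratios within a library were tested by exact permutation.

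The 10 genes and the lists were chosen with earlier results of these data known. All 10 genes are described. For each list and comparison, up to 4 called genes with the largest change and a mean of 10 RPM or more where higher were eligible. Not all of the eligible genes were named. Hells, Dnmt3l and Phf19 in 2MUT, Pax9 and Gata3 with 2-HG, Phf8, Ehmt1, Tubb3, Cd68, Col1a1, Lum, S100a4 and the other comparison of named genes were added after their values were seen. Alternatives were an added value of 0.1, no filter, a filter at 10 RPM, quantile and median-of-ratios normalization, an unmoderated test, edgeR 4.0.16, DESeq2 1.42.0, a replicate block and each library left out. The fits were tested on simulated data.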

Additional observations from a re-analysis of the deposited data

Results flagged for a closer look

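In 4 of 9 genes the change in 2MUT differed from the change with 2-HG by a test of the difference itself (limma over 12 libraries, adjusted over 9594 genes), which 39.4% of all genes tested passed in either direction. The differences on the log2 scale were -3.23 for Uhrf1, -1.27 for Ezh2, -1.24 for Dnmt1 and -0.75 for Ehmt2. Uhrf1 was lower in 3 of 3 2MUT libraries and higher in 3 of 3 2-HG(+) libraries than in all libraries of the compared group, as were Ezh2 and Dnmt1. Over all genes tested, all 3 libraries lay below for 24% in 2MUT and above for 22.2% with 2-HG. With 2-HG the gap was narrow for Ezh2 (25.0 against 23.6 RPM) and Dnmt1 (54.4 against 53.6 RPM). The rise of Ezh2 with 2-HG was called in 8 of 15 alternatives, and that of Dnmt1 did not pass (limma adjusted p = 0.0545). Ehmt2 was lower in 3 of 3 2MUT libraries and overlapped between the 2-HG groups. Each of these 4 differences passed the threshold in all 19 alternatives.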

How the results depend on the processing

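Uhrf1, Dnmt1, Ehmt2 and Ezh2 were called lower in 2MUT in all 15 alternatives, with log2 fold changes of -2.22 to -1.94, -0.96 to -0.73, -0.93 to -0.77 and -0.86 to -0.65. Uhrf1 was called higher with 2-HG in all 15, from 1.05 to 1.22. The unmoderated test called fewer genes, 1021 higher and 1223 lower in 2MUT and 1098 higher and 1139 lower with 2-HG. On recovered reads, edgeR called 1818 genes higher and 1947 lower in 2MUT and 1794 higher and 1752 lower with 2-HG. DESeq2 called 1838, 1910, 1901 and 1765 in the same order. Ezh2 with 2-HG (0.50) lost its call in the unmoderated test (adjusted p = 0.121) and Suz12 with 2-HG lost it with no filter (0.27, adjusted p = 0.0556) and with quantile normalization (0.22, adjusted p = 0.0747). Dnmt1 with 2-HG was called with median-of-ratios scaling (0.40), edgeR (0.40) and DESeq2 (0.40). Dnmt3a with 2-HG, never called, changed sign with quantile normalization (0.089), median-of-ratios scaling (0.024) and DESeq2 (0.0050). The ratio of Dnmt3b to Dnmt3a with 2-HG was 0.84 with 0.1 added in place of 1.

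Leaving out each library, the number of these genes called higher ran from 0 to 1 in 2MUT and from 1 to 2 with 2-HG. The log2 fold changes with 2-HG ran from 0.42 to 0.67 for Ezh2, from 0.23 to 0.29 for Suz12, from 0.27 to 0.48 for Dnmt1 and from -0.094 to 0.11 for Dnmt3a. In 2MUT they ran from 0.26 to 0.45 for Dnmt3a, -0.32 to 0.26 for Dnmt3b, -0.073 to 0.33 for Ezh1, -0.19 to 0.061 for Eed and -0.39 to 0.072 for Suz12. The difference between the comparisons ran from -0.094 to 0.17 for Uhrf2 and from -0.65 to -0.19 for Suz12, which passed without the first 2MUT library (adjusted p = 0.0316). The cause of these shifts was not tested.

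The labels number the libraries of each group, but same-numbered libraries did not deviate together (correlations across genes of 0.07, 0.03 and 0.03 for Control and 2MUT, and -0.46, -0.16 and 0.06 for the 2-HG groups), so that the numbers do not pair them. Libraries of different numbers in the 2-HG groups had correlations from -0.41 to 0.48. The largest was between the second 2-HG(-) and the first 2-HG(+) library. No fit took this shared deviation into account, and its cause was not tested. With the replicate number as a block, 1 of the genes was called higher with 2-HG, and Ezh2 (0.50, adjusted p = 0.068) and Suz12 (0.27, adjusted p = 0.134) were not. The block changed no other call of these genes. Depth limits Dnmt3b most, at 4 to 30 reads a library.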
